A study of Mus musculus with 6 samples.

Results

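Insulin receptor signalling was followed in white adipocytes through 9 genes: the receptors Insr and Igf1r, the receptor substrates Irs1 and Irs2, the PI 3-kinase subunits Pik3r1 and Pik3ca, the kinase Akt2, and the AKT targets Foxo1 and Tbc1d4. The genes were chosen by name for their roles, with earlier results of these data known. All 9 were among the 13734 genes in the table and among the 10054 that were tested. RNA came from adipocytes differentiated from 1 immortalized mouse line of subcutaneous white preadipocytes, in which both Dicer1 alleles are floxed and the recombinase Cre-ERT2 is activated by tamoxifen. The product of Dicer1 is the RNase that releases microRNAs from their hairpins. From day 6 of differentiation, DICERKO cells (3 libraries) received 10 µM 4-hydroxytamoxifen for 48 h and control cells (3 libraries) received ethanol. All 6 libraries came from cells that were stimulated afterwards for 6 h with 10 µM isoproterenol, which activates beta-adrenergic receptors, so no unstimulated cells enter the comparison, and the controls also carry the floxed alleles and Cre-ERT2. The differentiation media held 20 nM insulin and 2.8 µM rosiglitazone, a PPARγ agonist; whether insulin was present during the isoproterenol treatment is not given in the sources used here, and neither is the promoter that drives Cre-ERT2. Every DICERKO library and no control was exposed to 4-hydroxytamoxifen, so deletion and drug cannot be told apart. The labels call the libraries biological replicates without saying whether cultures were differentiated separately, so the p-values cover only the variation among the 6 libraries as sequenced.

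Values are log2 CPM, the log2 of a gene's reads scaled to the same library size in every sample. The design text names TMM (trimmed mean of M values) scaling, which these library sizes may already include. Reads on the genes in the table ran from 13569034 to 30268077 per library, and the 9 genes had 366 to 6075 reads each in every library. Dicer1 stood at 5.43, 5.47 and 5.49 log2 CPM in DICERKO replicates 1 to 3, against 6.14, 6.09 and 6.14 in controls 1 to 3, a difference of -0.66 (limma, adjusted p = 0.0150); over the fits that left out 1 library its adjusted p ran from 0.000234 to 0.146. DICERKO replicate 3 lay apart from the other libraries of its group (chi-square per degree of freedom of 85.5 and 92.8, against 8.36 between replicates 1 and 2 and 12.05 to 26.43 between controls). It was also the deepest library, with 30268077 reads, and the part of depth in these values was not tested. Its markers of the mature adipocyte were low: their median over 10 genes lay at 0.60, 0.64 and -1.13 on the log2 scale in DICERKO replicates 1, 2 and 3 relative to the control mean, and at -0.04 to 0.06 in controls. The difference of each of the 9 genes is therefore given with and without that library. Markers of fibroblasts had medians over 8 tested genes of -0.29, -0.18 and -0.58 in DICERKO replicates 1 to 3, against -0.06 to 0.05 in controls, but did not move together. Of the 8, 4 were lower without overlap of the groups (Col1a1, Col3a1, Thy1 and Dcn), as were 9.81% of all tested genes. Pdgfra (-0.06), Ly6a (-0.05) and Cd34 (-0.04) had groups that overlapped, as had Dlk1, which was higher by 0.29. Col3a1 alone passed the test (limma, -1.44, adjusted p = 0.00856). Of 6 macrophage markers 3 had values: Csf1r at 2.44 to 2.99 in DICERKO and 2.56 to 3.12 in controls, Cd68 at 4.50 to 4.52 and 4.06 to 4.23, and Lyz2 below 0 in every library. Adgre1, Itgam and Ptprc were not found among the genes in the table. Of 3 endothelial markers, Pecam1 and Cdh5 were below 0 log2 CPM in every library and Kdr ran from -2.82 to 0.07 in DICERKO and from -0.55 to 0.58 in controls (difference -1.40, adjusted p = 0.319; 0.0130 without DICERKO replicate 3). Of 3 smooth muscle markers, Myh11 was below 0 in DICERKO and close to or below 0 in controls. The other two were abundant: Acta2 ran from 7.55 to 7.96 in DICERKO and from 7.86 to 8.29 in controls (difference -0.33, adjusted p = 0.316), and Tagln from 7.29 to 7.63 and from 7.59 to 7.94 (-0.30, 0.298; 0.0350 without DICERKO replicate 3). The part of these markers in the results on the 9 genes was not tested.

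Insulin acts on the fat cell by binding the insulin receptor, a tyrosine kinase that phosphorylates the substrate proteins IRS1 and IRS2. These recruit PI 3-kinase, whose lipid product brings AKT to the membrane. AKT2 then phosphorylates AS160, the product of Tbc1d4, which frees vesicles carrying the glucose transporter GLUT4 to fuse with the cell surface, and FOXO1, which leaves the nucleus and stops acting on its target genes. In adipocytes the pathway drives glucose uptake and lipid storage and restrains lipolysis. MicroRNAs of the let-7 family are known in mouse and human cells to act on transcripts of the insulin and IGF1 receptors and of IRS2.

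Seed matches of let-7 are shown because the enzyme whose gene was targeted here makes mature let-7, and because transcripts of Insr, Igf1r and Irs2 are among its known targets. Akt2 is shown for its match alone. Mature microRNAs were not measured in these libraries. The let-7 seed (bases 2 to 8, in capitals) and its complement in the 3′ UTRs (in capitals, 5′ to 3′) are given with GRCm38 coordinates of the stretch shown; the mature sequence is from RefSeq (GRCm38.p6) and the UTRs are the longest annotated by GENCODE M21.
mmu-let-7a-5p: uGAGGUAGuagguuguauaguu
Insr, chr8:3153195-3153220, minus strand: tcttctcagtacagtCTACCTCagtg
Igf1r, first match, chr7:68229110-68229135, plus strand: ttttcaaacatttatCTACCTCactc
Igf1r, second match, chr7:68233216-68233241, plus strand: tttgccagagttcatCTACCTCtggg
Irs2, chr8:10986525-10986550, minus strand: aaaactaccacagtcCTACCTCagtt
Akt2, chr7:27640296-27640321, plus strand: aggacacgttcctgcCTACCTCtggt
The word CTACCTC, searched on the transcript strand, was thus in the 3′ UTRs of 4 of the 9 genes. It was in 10.7% of all 9507 tested genes with a 3′ UTR, and in 21.5% of the 2576 whose 3′ UTR was at least as long as the shortest of the 9 (2178 bases in Tbc1d4). The 4 genes did not share a direction: the difference between DICERKO and control on the log2 scale was 0.20 for Insr, -0.14 for Igf1r, -0.42 for Irs2 and 0.34 for Akt2.

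None of the 9 genes passed the threshold with all 6 libraries (limma with an intensity trend, adjusted p under 0.05 over all 10054 genes). Genes called over the whole table came to 44, or 0.438%, with 11, 10 and 1 called without control replicates 1, 2 and 3, and 36, 19 and 1983 without DICERKO replicates 1, 2 and 3. At an unadjusted p under 0.05, 2 of the 9 genes passed, Irs2 and Foxo1, against 1593 genes of the table (15.8%); limma-voom on the reads that the values imply called 0 of the 9. With array weights, 6 rose and 1 fell (Irs2), where 25.3% of all tested genes rose and 19.3% fell (44.6% in either direction). The weights were 0.203 for DICERKO replicate 3 and 7.54, 0.638 and 0.494 for controls 1 to 3. Control 1 thus counted most, and the estimation of the weights stopped before it converged. The groups did not overlap for 2 of the 9 genes, Foxo1 higher and Irs2 lower in every DICERKO library than in any control, and 20.2% of all tested genes had groups that did not overlap. Of the 9 differences 6 were above 0, with a median of 0.21 against 0.02 over all tested genes.

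Insr, which encodes the insulin receptor (Entrez 16337, GRCm38 chromosome 8, 3150922 to 3279649), stood at 6.92, 6.85 and 6.04 log2 CPM in DICERKO replicates 1, 2 and 3, against 6.39, 6.46 and 6.38 in controls. Replicates 1 and 2 lay above every control and replicate 3 below every control, so the groups overlapped. The difference was 0.20 (SE 0.20, adjusted p = 0.608). Insr rose by 0.48 without DICERKO replicate 3 (SE 0.10, adjusted p = 0.00257), or 1.39 times the control level. A change in the share of adipocytes and a change of this RNA per adipocyte cannot be told apart in these bulk samples, in either direction. The median of the adipocyte markers was likewise above the control mean in DICERKO replicates 1 and 2 and below it in replicate 3. The marker Cd36 did not follow in replicates 1 and 2, at 8.55, 8.73 and 6.78 in DICERKO and 8.83, 8.61 and 8.94 in controls. The part of the adipocyte markers in the result was not tested.

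Igf1r, the receptor of insulin-like growth factor 1 (Entrez 16001, chromosome 7, 67952257 to 68233668), had the opposite order. It stood at 5.93, 6.02 and 6.31 in DICERKO replicates 1 to 3, against 6.12, 6.38 and 6.16 in controls. Replicates 1 and 2 were below every control and replicate 3 lay within their range. It was the single gene of the 9 in which replicate 3 was not the lowest DICERKO library; over all tested genes 40.6% had replicate 3 lowest. The difference was -0.14 (SE 0.13, 95% interval -0.42 to 0.15, adjusted p = 0.581), and over the fits that each left out 1 library it ran from -0.25 without DICERKO replicate 3 (adjusted p = 0.111) to -0.057 without DICERKO replicate 1 or control replicate 2. Within a library, Insr exceeded Igf1r by 0.99, 0.84 and -0.27 in DICERKO replicates 1, 2 and 3, against 0.27, 0.08 and 0.21 in controls, a sign that was turned round in DICERKO replicate 3 alone.

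Irs1 and Irs2 encode the docking proteins that receptor kinases phosphorylate. Irs1 (Entrez 16367, chromosome 1, 82233105 to 82291439) stood at 5.51, 5.54 and 4.42 in DICERKO replicates 1 to 3, against 5.58, 5.38 and 5.56 in controls. Replicates 1 and 2 lay inside the control range and replicate 3 was 1.09 below the control mean. The difference of -0.35 (SE 0.25, adjusted p = 0.478) was thus carried by 1 library, and without it the difference was 0.02 (95% interval -0.21 to 0.25, adjusted p = 0.907).

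Irs2 (Entrez 384783, chromosome 8, 10984681 to 11008929) stood at 6.52, 6.54 and 6.15 in DICERKO replicates 1 to 3, against 6.90, 6.87 and 6.69 in controls. All 3 DICERKO libraries were below all 3 controls, replicate 3 furthest. The difference was -0.42 (SE 0.13, 95% interval -0.70 to -0.13), and Irs2 ranked 434 by p among the 10054 genes; its adjusted p was 0.186, so it did not pass. The difference was -0.29 without DICERKO replicate 3 (adjusted p = 0.0548), and over the 6 fits that each left out 1 library it ran from -0.48 to -0.29.

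The starts of Irs1 and Irs2 are printed because both hold the word CAAAACA or its complement TGTTTTG, an insulin response element known to bind FOXO1 in the Irs2 gene. Each is the RefSeq window (GRCm38.p6) of 250 bases before to 50 bases after the gene's start, in the gene's direction, with the word in capitals.
Irs1, chr1:82291390-82291689, minus strand: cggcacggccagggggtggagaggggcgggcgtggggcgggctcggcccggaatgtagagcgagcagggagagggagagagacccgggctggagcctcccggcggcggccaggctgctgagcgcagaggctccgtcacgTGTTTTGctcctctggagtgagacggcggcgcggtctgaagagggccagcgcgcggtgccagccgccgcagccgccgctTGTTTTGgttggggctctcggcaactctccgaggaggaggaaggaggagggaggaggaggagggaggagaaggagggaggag
Irs2, chr8:11008880-11009179, minus strand: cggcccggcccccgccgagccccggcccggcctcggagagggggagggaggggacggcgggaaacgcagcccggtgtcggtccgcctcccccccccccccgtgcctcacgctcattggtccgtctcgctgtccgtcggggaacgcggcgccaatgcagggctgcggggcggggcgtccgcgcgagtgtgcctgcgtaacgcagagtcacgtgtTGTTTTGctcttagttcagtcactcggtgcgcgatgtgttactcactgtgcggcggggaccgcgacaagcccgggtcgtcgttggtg
Of the 9 genes 8 matched a RefSeq window (12 windows in all); Insr did not. The word was found on either strand in 2 of these 8 genes and in 4.26% of 10543 promoters. The words GTAAACA, bound by FOXO factors, and TGACGT, part of the cyclic AMP response element, were in none of the 12 windows and in 2.54% and 10.6% of all promoters, so no match overlapped one of another word. Irs1 and Irs2, the 2 genes with the word, were both below the controls in DICERKO replicate 3, by 1.09 and 0.67, and parted in replicates 1 and 2, where Irs1 differed from the control mean by 0.01 and 0.03 and Irs2 by -0.29 and -0.28.

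**Figure D1:**
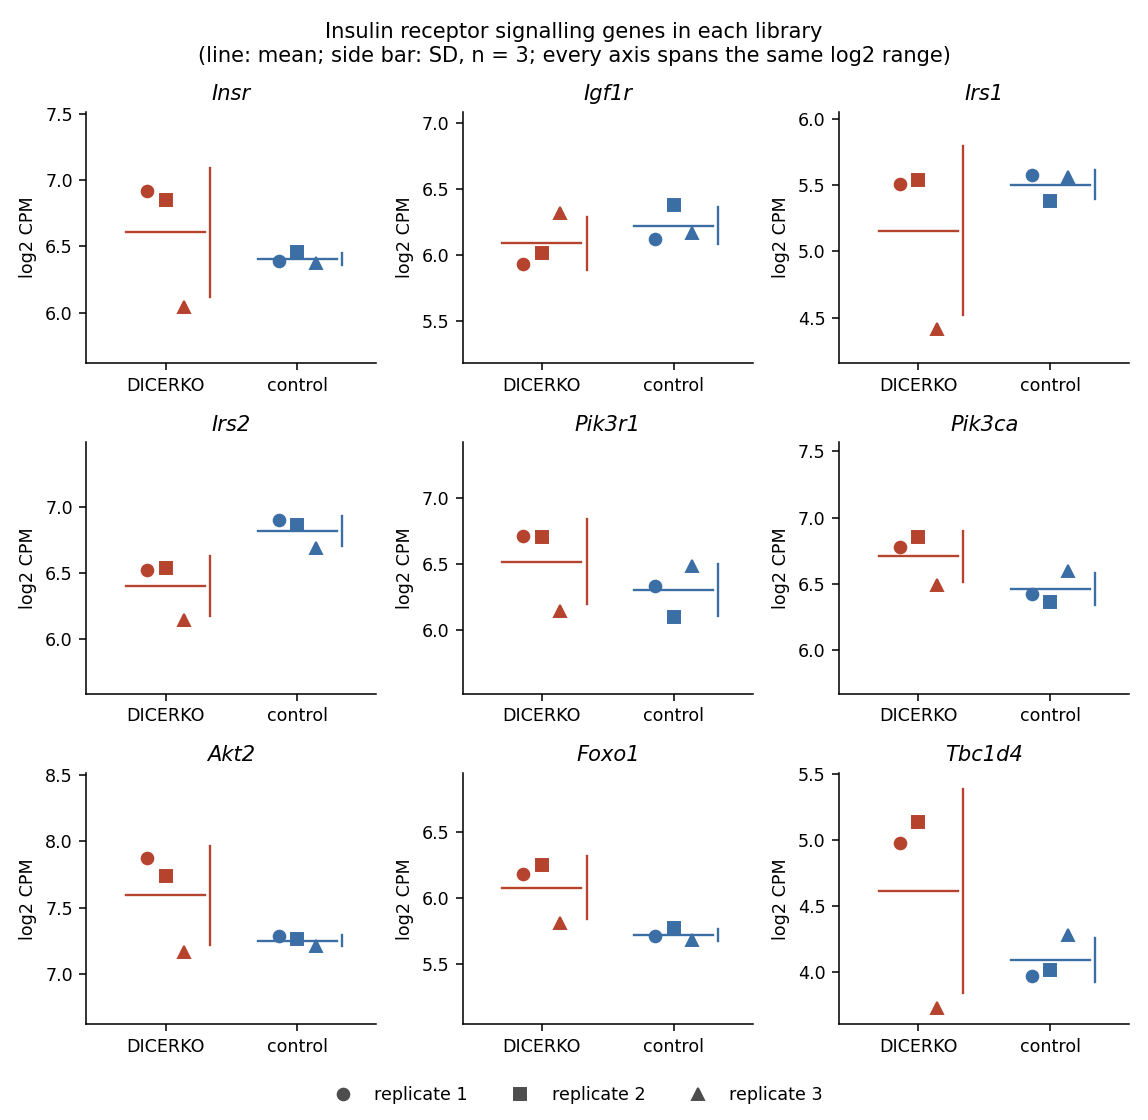
log2 CPM of each of the 9 genes in each library, with the 3 DICERKO libraries on the left and the 3 controls on the right of every panel; symbols mark the replicate, lines the mean and side bars the SD. Foxo1 and Irs2 are the 2 genes whose groups do not overlap, and DICERKO replicate 3 is the lowest DICERKO library for each gene but Igf1r.

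The genes of the PI 3-kinase subunits had alike profiles over the libraries. Pik3r1, the regulatory subunit p85α (Entrez 18708, chromosome 13, 101680761 to 101768217), stood at 6.71, 6.70 and 6.15 in DICERKO replicates 1 to 3, against 6.33, 6.10 and 6.49 in controls. Pik3ca, the catalytic subunit p110α (Entrez 18706, chromosome 3, 32397065 to 32466112), stood at 6.78, 6.85 and 6.49, against 6.42, 6.36 and 6.59. For both, DICERKO replicates 1 and 2 were above every control, replicate 3 lay within the control range, and control 3 was the highest control. The difference was 0.21 for Pik3r1 (SE 0.16, adjusted p = 0.503) and 0.25 for Pik3ca (SE 0.12, adjusted p = 0.346). Both rose without DICERKO replicate 3, Pik3r1 by 0.40 (adjusted p = 0.0219) and Pik3ca by 0.36 (adjusted p = 0.0227). Pik3r1 minus Pik3ca within a library was -0.07, -0.15 and -0.34 in DICERKO replicates 1 to 3, and -0.09, -0.26 and -0.11 in controls.

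Akt2, the AKT isoform that carries the insulin signal to glucose uptake (Entrez 11652, chromosome 7, 27591552 to 27640826), stood at 7.87, 7.74 and 7.17 in DICERKO replicates 1 to 3, against 7.28, 7.26 and 7.21 in controls. The controls spanned 0.08, DICERKO replicates 1 and 2 were above them by more than that span, and replicate 3 was just below the lowest. The difference was 0.34 (SE 0.16, 95% interval -0.02 to 0.70, adjusted p = 0.333). Akt2 rose by 0.56 without DICERKO replicate 3 (SE 0.09, adjusted p = 0.000844), or 1.47 times the control level.

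Foxo1, the transcription factor that AKT keeps out of the nucleus (Entrez 56458, chromosome 3, 52268337 to 52350109), stood at 6.18, 6.25 and 5.81 in DICERKO replicates 1 to 3, against 5.71, 5.77 and 5.68 in controls. Every DICERKO library was above every control, replicate 3 by the least. The difference was 0.36 (SE 0.13, 95% interval 0.07 to 0.64), a ratio of 1.28, with rank 739 by p and an adjusted p of 0.243. In the fit without DICERKO replicate 3, Foxo1 rose by 0.49 (SE 0.10, adjusted p = 0.00275). Its 3′ UTR is shown at the seed matches of miR-27 and miR-96, microRNAs known to act on FOXO1 in human cells, with seeds and their complements in capitals.
mmu-miR-27a-3p: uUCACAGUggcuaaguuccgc
Foxo1, chr3:52347381-52347406, plus strand: atactcttttgtaatACTGTGAtggt
mmu-miR-96-5p: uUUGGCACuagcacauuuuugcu
Foxo1, chr3:52347226-52347251, plus strand: aatcattacaatgaaGTGCCAAactc
The miR-27 word ACTGTGA was in 5 of the 9 genes and in 34.8% of genes with a 3′ UTR of at least 2178 bases, and the miR-96 word GTGCCAA in 3 of 9 and in 20.5%. Of 11 families searched, matches of miR-128 were in 8 of 9 genes (44.1% of such genes), of miR-15/16 in 6 (47.2%), of miR-29 in 4 (31.9%), of miR-182 in 4 (27.1%), of miR-30 in 3 (34.4%), of the miR-103 family in 3 (27.9%), of miR-33 in 2 (17.1%) and of miR-126 in 0 (0.505%). The words of miR-27 and miR-128 can overlap, as can those of miR-103 and miR-15/16.

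Tbc1d4, the Rab GTPase-activating protein AS160 (Entrez 210789, chromosome 14, 101442360 to 101609281), had the widest span of the 9 genes. It stood at 4.98, 5.13 and 3.73 in DICERKO replicates 1 to 3, against 3.98, 4.01 and 4.28 in controls. Replicates 1 and 2 were above every control and replicate 3 below every control. The difference was 0.52 (SE 0.30, 95% interval -0.14 to 1.19, adjusted p = 0.397). Tbc1d4 rose by 0.97 without DICERKO replicate 3 (SE 0.13, adjusted p = 9.48e-05), or 1.95 times the control level, the largest change of the 9 in that fit. In Slc2a4, which encodes GLUT4, DICERKO replicates 1 and 2 were also above and replicate 3 below every control: 5.75, 5.74 and 3.67 in DICERKO replicates 1 to 3, against 4.76, 4.57 and 4.72 in controls.

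**Figure D2:**
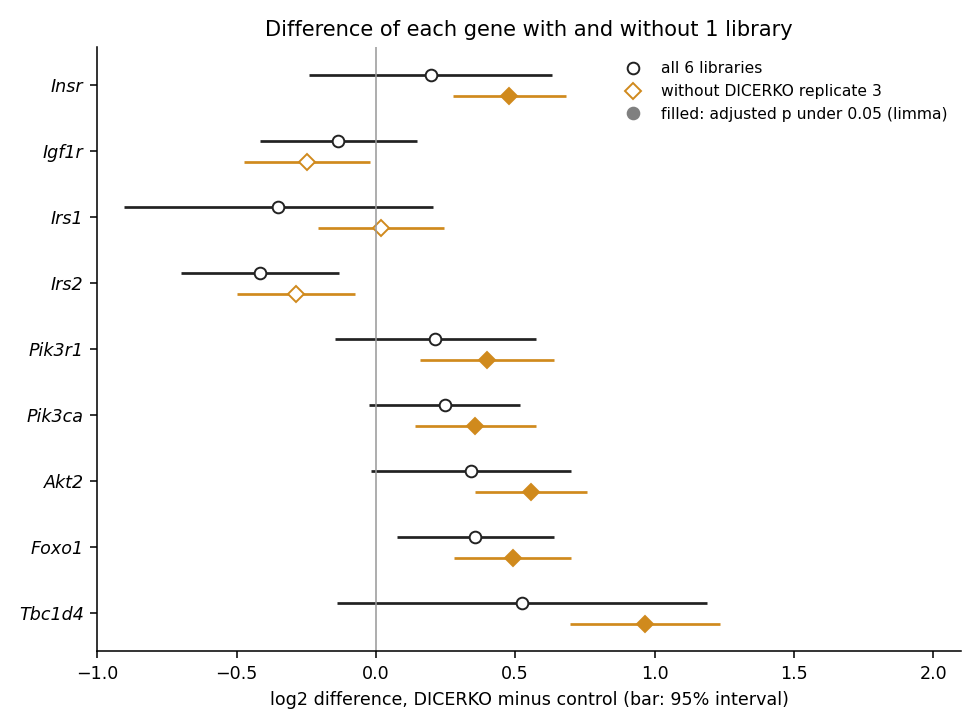
Log2 difference, DICERKO minus control, of each gene with its 95% interval from limma, for all 6 libraries (circles) and without DICERKO replicate 3 (diamonds); filled symbols passed an adjusted p of 0.05. No circle is filled, and 6 diamonds are: Insr, Pik3r1, Pik3ca, Akt2, Foxo1 and Tbc1d4.

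Thus 6 of the 9 genes rose and 0 fell without DICERKO replicate 3, where 12.5% of all tested genes rose and 7.22% fell (19.7% in either direction). These p-values leave out the spread that this library adds, and the fits that left out any of the other 5 libraries called none of the 9. A rise without DICERKO replicate 3 was not particular to these genes. Of the 10 adipocyte markers, 8 rose and 0 fell in that fit, with a median difference of 0.61. Of the 8 tested fibroblast markers, 0 rose and 4 fell. Against the control mean, DICERKO replicate 3 lay at -0.37 for Insr, 0.09 for Igf1r, -1.09 for Irs1, -0.67 for Irs2, -0.16 for Pik3r1, 0.03 for Pik3ca, -0.09 for Akt2, 0.09 for Foxo1 and -0.36 for Tbc1d4. It was furthest below the controls for Irs1, and within 0.2 of the control mean for Igf1r, both PI 3-kinase subunits, Akt2 and Foxo1. Set against the mean of DICERKO replicates 1 and 2, it was lower by 0.33 (Pik3ca) to 1.33 (Tbc1d4) in 8 genes, with a median over the 9 of -0.56 against 0.01 over all tested genes. The summed level of the 10 adipocyte markers was 9479, 9589 and 2645 CPM in DICERKO replicates 1, 2 and 3 and 5010 to 6301 CPM in controls. That of the 9 fibroblast markers was 4664, 5215 and 4217 CPM against 7690 to 8785 CPM. The most abundant gene weighs most in each sum: Fabp4 (10.81 to 12.73 log2 CPM over all libraries) and Col1a1 (11.25 to 12.26). The part of the markers in the values of the 9 genes was not tested.

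**Figure D3:**
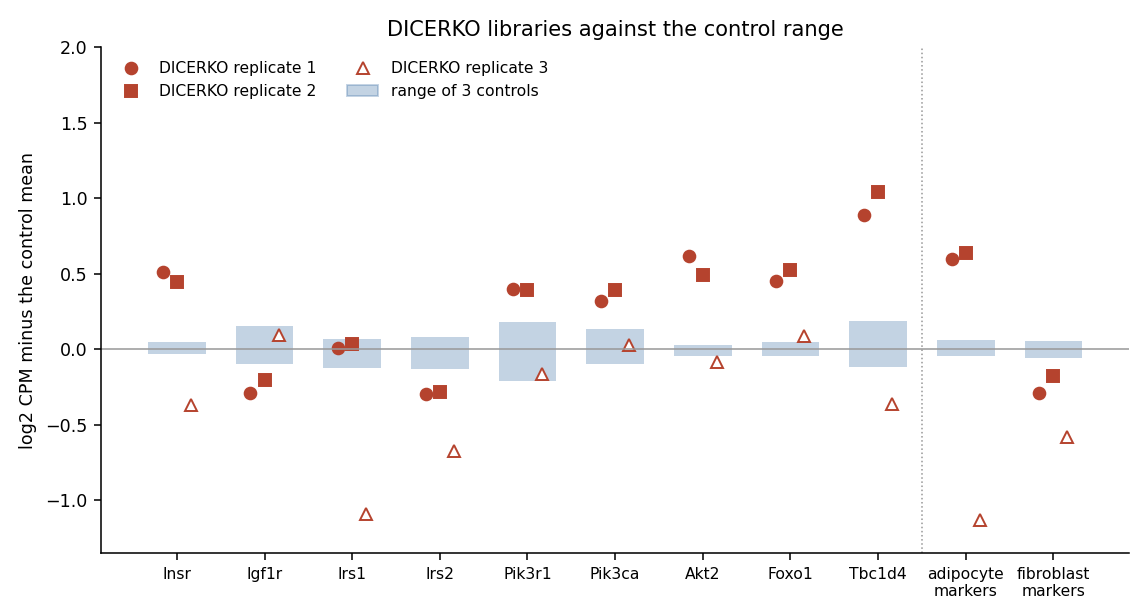
Log2 CPM of each DICERKO library minus the control mean, for the 9 genes and for the median of the adipocyte and fibroblast marker lists; shaded boxes give the range of the 3 controls. In DICERKO replicate 3 (open triangles) the adipocyte markers lie at -1.13, next to Irs1 at -1.09, while Foxo1, Pik3ca and Igf1r lie at 0.03 to 0.09.

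Differences between 2 genes within 1 library do not depend on how that library was scaled, and 4 such pairs were compared. Foxo1 minus Irs2 was -0.35, -0.29 and -0.34 in DICERKO replicates 1 to 3, against -1.19, -1.09 and -1.01 in controls. The groups did not overlap, replicate 3 fell between the other DICERKO libraries, and the means were -0.32 ± 0.03 in DICERKO and -1.10 ± 0.09 in controls (SD, n = 3 each). The difference of 0.77 had an exact two-sided permutation p of 0.1, the smallest that 3 libraries against 3 allow, and 0.4 adjusted over the 4 pairs. In CPM, Foxo1 was 0.798 of Irs2 in DICERKO and 0.467 in controls; these are not corrected for the length of the transcripts. Both genes had groups that did not overlap, in opposite directions, so their difference could not overlap either; what the pair adds is that replicate 3 did not stand apart in it. For Insr minus Igf1r the difference between groups was 0.33 (exact permutation p = 0.4), 0.73 without DICERKO replicate 3, 0.17 without DICERKO replicate 2 and 0.10 without DICERKO replicate 1; for Irs1 minus Irs2 it was 0.07 (exact permutation p = 0.8), and for Pik3r1 minus Pik3ca it was -0.03 (exact permutation p = 0.7), each 0.8 adjusted over the 4 pairs, with groups that overlapped.

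**Figure D4:**
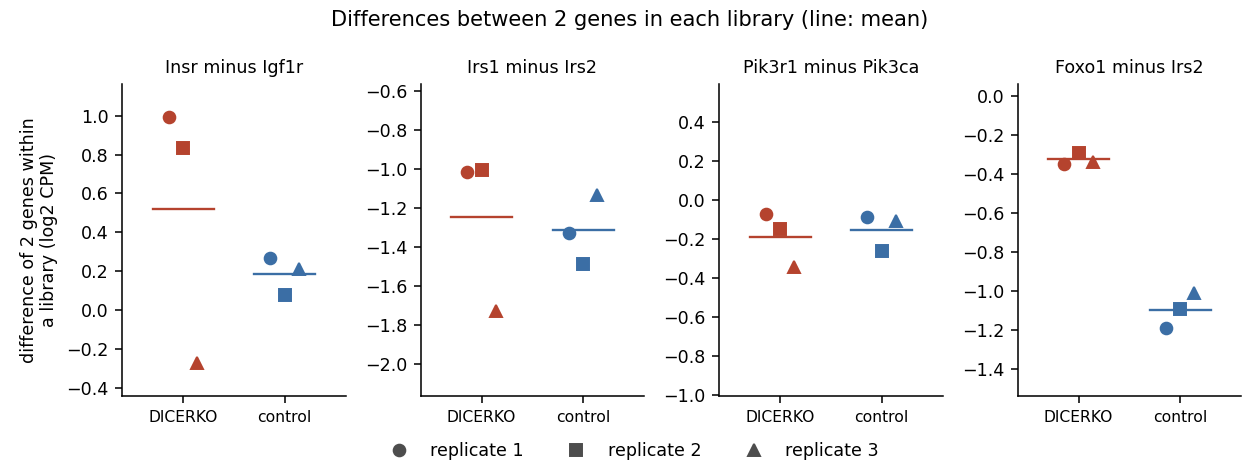
Difference in log2 CPM between 2 genes in each library for the 4 pairs, DICERKO left and control right; symbols mark the replicate and lines the mean. Foxo1 minus Irs2 lies between -0.35 and -0.29 in the DICERKO libraries and between -1.19 and -1.01 in the controls, while the groups of the other 3 pairs overlap.

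Per kilobase of exon (log2 CPM per kb, over the merged exons of GENCODE M21), Akt2 had the highest level of the 9 genes in both groups, at 4.76 ± 0.38 in DICERKO and 4.42 ± 0.04 in controls (SD, n = 3 each). Irs2 was second, at 3.74 ± 0.22 and 4.16 ± 0.11. Pik3ca (3.52 ± 0.19 and 3.28 ± 0.12) and Pik3r1 (3.19 ± 0.32 and 2.97 ± 0.20) followed. Foxo1 had 2.96 ± 0.24 in DICERKO and 2.61 ± 0.05 in controls, Insr 2.82 ± 0.49 and 2.63 ± 0.05, Igf1r 2.02 ± 0.20 and 2.15 ± 0.14, Irs1 1.96 ± 0.64 and 2.31 ± 0.11, and Tbc1d4 1.67 ± 0.77 and 1.15 ± 0.17. In DICERKO, neighbours in this order overlapped between libraries except for Akt2 above Irs2 and Insr above Igf1r. In controls, Insr and Foxo1 overlapped, as did Irs1 and Igf1r, and the other neighbours did not. Irs2 lay above Irs1 per kilobase in each of the 6 libraries.

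The genes whose centred log2 CPM over the 6 libraries came nearest to a member were found by the root mean square difference. For Foxo1 it was Hsd3b7 (0.016 on the log2 scale), with 5.41, 5.46 and 5.03 log2 CPM in DICERKO replicates 1 to 3 and 4.92, 5.03 and 4.93 in controls. For Akt2 it was Mpdu1 (0.018), for Insr Aco1 (0.033), for Igf1r Rab11fip3 (0.030), for Pik3ca Zhx1 (0.030), for Pik3r1 Ap3s1 (0.040), for Irs2 Ifitm3 (0.049), for Tbc1d4 Scp2 (0.062) and for Irs1 Gpat3 (0.077). Among the 9 genes themselves the nearest pair was Pik3r1 and Pik3ca (0.099), followed by Akt2 and Foxo1 (0.10) and by Insr and Akt2 (0.10).

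The rest of the pathway was taken from 8 lists with 130 genes, of which 92 were tested. None of the 92 passed with all libraries (limma; limma-voom also called 0), 14 had an unadjusted p under 0.05 (15.8% of all tested genes did), and their median difference was -0.01 against 0.02 over all tested genes. The groups did not overlap for 11 genes that were higher and 11 that were lower in DICERKO, where 10.4% and 9.81% of all tested genes did so. Without DICERKO replicate 3, 12 rose and 8 fell, close to the 12.5% and 7.22% of all tested genes in that fit. Of the 92, Slc2a4 and Pnpla2 are also adipocyte markers.

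Among 9 tested adaptors and docking proteins, Irs3, a further insulin receptor substrate of rodent adipocytes, had the largest difference of all 92 genes. It stood at 3.20, 2.92 and 2.03 log2 CPM in DICERKO replicates 1 to 3, against 1.61, 1.42 and 1.22 in controls. All 3 DICERKO libraries were above all 3 controls, and the difference was 1.30 (SE 0.28, adjusted p = 0.0814); without DICERKO replicate 3, Irs3 rose by 1.65 (adjusted p = 4.40e-05). Crk, an adaptor in the branch to small GTPases, differed by 0.21 (adjusted p = 0.338), Gab1, a docking protein, by -0.07 (0.763) and Sh2b1, an adaptor that binds the receptor, by -0.04 (0.866). The list's median was 0.05. Of 2 tested genes of the receptor and ligand list, Igf2r, which clears IGF2, differed by 0.25 (adjusted p = 0.286) with no overlap of groups, and the growth factor Igf1 by -0.29 (0.812), at 4.39, 4.77 and 1.97 in DICERKO replicates 1 to 3 and 3.96, 3.53 and 4.50 in controls.

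Of 18 tested inhibitors of insulin signalling, 12 had differences below 0, with a median of -0.11, and 5 were lower in every DICERKO library than in every control while 0 were higher, where 9.81% of all tested genes were lower and 10.4% higher without overlap. Socs3, which blocks the receptor and marks IRS proteins for breakdown, stood at 6.87, 6.97 and 6.92 in DICERKO replicates 1 to 3, against 7.34, 7.44 and 7.36 in controls. Enpp1, a membrane protein that binds and inhibits the receptor, stood at 3.23, 3.11 and 3.05, against 3.87, 3.66 and 3.81. For these 2 genes replicate 3 lay with or next to the other DICERKO libraries. Their differences were -0.46 (SE 0.09) for Socs3 and -0.65 (SE 0.13) for Enpp1, with an adjusted p of 0.0718 for each. In the same list Pik3ip1, an inhibitor of PI 3-kinase, differed by 0.29 (adjusted p = 0.399). Socs3 (-0.46, adjusted p = 0.00314), Enpp1 (-0.61, 0.00608) and the phosphatase gene Ptprf (-0.42, 0.0291) fell without DICERKO replicate 3, and 0 of the 18 rose, against 7.22% of all tested genes that fell and 12.5% that rose in that fit.

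Genes downstream differed in both directions. In the FOXO list (16 tested, median -0.02), Txnip, an inhibitor of glucose uptake and a FOXO target, was at 10.24, 10.33 and 10.47 in DICERKO replicates 1 to 3, against 10.82, 10.87 and 10.70 in controls, a difference of -0.45 (adjusted p = 0.144) with no overlap. Foxo6 differed by 0.36 (0.440), Lpin1, a phosphatidate phosphatase, by 0.33 (0.506) and Foxo3 by -0.18 (0.436). In GLUT4 traffic (15 tested, median 0.12), Slc2a1, the basal glucose transporter GLUT1, stood at 9.19, 9.44 and 9.65 against 9.72, 10.18 and 9.76, a difference of -0.46 (adjusted p = 0.228) with no overlap. Slc2a4 differed by 0.37 (0.669) and the vesicle sorting receptor Sort1 by 0.39 (0.608), and both rose without DICERKO replicate 3, by 1.07 and 1.01. In that fit Lpin1 also rose (0.70, limma, adjusted p = 0.00066), and Txnip (-0.51, 0.0035) and Slc2a1 (-0.57, 0.0072) fell. Tbc1d1, the paralogue of Tbc1d4, differed by -0.18 (adjusted p = 0.432), and by -0.27 without DICERKO replicate 3 (0.0666).

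In the mTORC1 branch (11 tested, median 0.09), Ddit4, an inhibitor of mTORC1 upstream of TSC, differed by -0.56 (adjusted p = 0.178) with no overlap, at 7.62, 7.98 and 8.12 in DICERKO replicates 1 to 3 and 8.23, 8.81 and 8.36 in controls. The TSC subunit Tbc1d7 differed by -0.29 (0.322), the ribosomal S6 kinase Rps6kb1 by 0.25 (0.360) and the mTOR-binding inhibitor Deptor by 0.21 (0.528). Without DICERKO replicate 3, Ddit4 (-0.66, limma, adjusted p = 0.0052) and Tbc1d7 (-0.39, 0.032) fell and Deptor rose (0.44, 0.0088). Among other PI 3-kinase, AKT and mTORC2 genes (8 tested, median -0.05), Prr5l differed by -0.34 (adjusted p = 0.312), the catalytic subunit p110δ gene Pik3cd by -0.28 (0.441) and Prr5 by 0.13 (0.647). Akt1, another AKT isoform, differed by -0.09. Among 13 other effectors (median 0.00), the glycogen-targeting subunit Ppp1r3c differed by -0.55 (adjusted p = 0.250), Fasn, fatty acid synthase, by -0.28 (0.248), the atypical protein kinase C gene Prkci by 0.28 (0.236) and the RAS exchange factor Sos1 by 0.17 (0.453). Of these, Fasn fell (-0.32, limma, adjusted p = 0.029) and Prkci rose (0.29, 0.046) without DICERKO replicate 3.

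**Figure D5:**
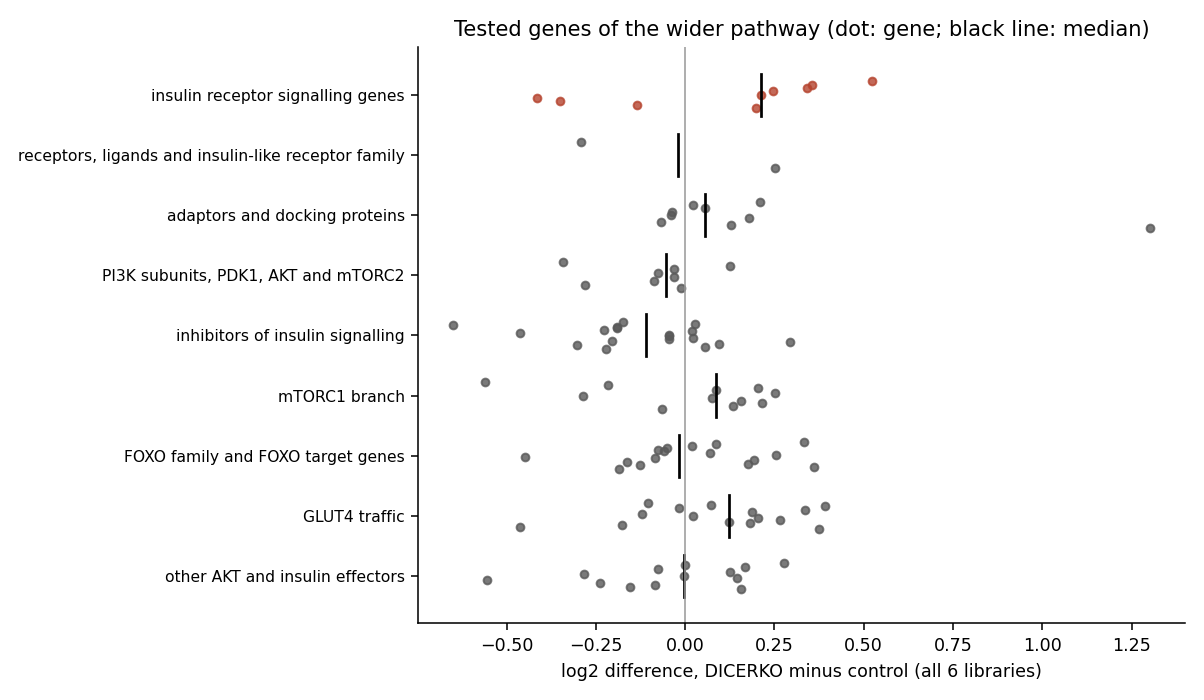
Log2 difference, DICERKO minus control with all 6 libraries, of the 9 genes (top) and of the 92 tested genes of the 8 wider lists; each dot is a gene and the black line the median of its list. Medians run from -0.11 for the inhibitors to 0.21 for the 9 genes, and Irs3 at 1.30 is the dot furthest to the right.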

How the data were processed

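Sequencing libraries of poly(A) RNA, 3 from DICERKO and 3 from control adipocytes, were analysed. The authors deposited 1 table of log2 CPM with a column for each library; 0 of its columns belong to other samples. Builds (GRCm38, mm10) and tools (HISAT2, featureCounts, edgeR, FastQC, Trimmomatic) are listed by the submitters' processing notes with neither version nor role, and the design text names TMM scaling. No source used here says whether counting used strand, so a gene's reads may include those of an antisense partner. The values imply whole reads plus a prior of 0.5 (100% within 0.01 reads), from which depths were taken: 13569034 to 30268077 reads per library on the genes in the table. Intervals cover the spread between libraries.

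Entrez IDs were matched to RefSeq GRCm38.p6 symbols (13682 of 13734). Genes reaching 1 CPM in 3 or more libraries were fitted with limma 3.58.1 (R 4.3.3) with an intensity trend on the deposited values, group as the only term, and Benjamini-Hochberg adjustment over 10054 genes. Differences are DICERKO minus control in log2 CPM; the prior makes those of low genes too small. Pairs of genes were compared by exact two-sided permutation (scipy 1.17.1). On data simulated for this comparison with 200 changed genes among 10054, the test found 96% of 100 changes of 1 and 100% of 100 changes of 2 on the log2 scale, with 12 false calls. The simulation assumed 1 fixed dispersion for all genes and did not carry the spread of DICERKO replicate 3. It held no changes smaller than 1, so it does not show how often differences as small as those of the 9 genes would be found. Chi-square values took in genes with 20 reads or more in each library of the pair. The genes and lists were chosen with earlier results of these data known. Named outside the 9 genes are, per list, the up to 2 largest positive and 2 largest negative differences, the nearest profiles and Dicer1; Ptprf, Akt1 and the marker genes were named after their values were seen. Some genes that the rule names are not reported here. Alternatives changed the scaling, filter, pseudocount, test, replicate term and libraries. Python 3.11.15 with numpy 2.4.6, pandas 2.3.3 and matplotlib 3.10.9 was used for the other steps.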

Additional observations from a re-analysis of the deposited data

How the results depend on the processing

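With 9 other settings that kept all libraries (trimmed mean of M values or median scaling, no filter, at least 5 CPM, log2(CPM + 1), limma-voom, array weights, robust empirical Bayes, replicate block), the 81 values of the 9 genes kept their direction. Not all of these values were free to change. The 2 filters, robust empirical Bayes and the replicate block leave each difference as it was and act only on its p-value. Trimmed mean of M values scaling changed little, with factors from 0.9965 to 1.005. Array weights were the exception for calls: 7 of the 9 passed, Insr at 0.43, Irs2 at -0.38, Pik3r1 at 0.34, Pik3ca at 0.38, Akt2 at 0.47, Foxo1 at 0.48 and Tbc1d4 at 1.00, as did 2542 genes higher and 1942 lower of the whole table (44.6%) and 26 higher and 16 lower wider pathway genes. The weights ran from 0.203 for DICERKO replicate 3 to 7.54 for control replicate 1, and their estimation stopped before it converged. Robust empirical Bayes called 23 higher and 47 lower over the table, and the fit with the replicate block 0 and 2; the block moved no call of the 9 genes. Same-numbered libraries deviated together with r of 0.20, -0.01 and -0.08 over genes. The libraries numbered 1 correlated best with each other, those numbered 2 and 3 did not. Deviations from a mean of 3 libraries depend on one another, so these values cannot settle whether same-numbered libraries were paired.

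Over the fits that each left out 1 library, Insr ran from 0.039 to 0.48, Igf1r from -0.25 to -0.057, Irs2 from -0.48 to -0.29, Irs1 from -0.54 to 0.019, Pik3r1 from 0.11 to 0.40, Pik3ca from 0.17 to 0.36, Akt2 from 0.20 to 0.56, Foxo1 from 0.27 to 0.49 and Tbc1d4 from 0.26 to 0.97, Irs1 changing sign without DICERKO replicate 3. Irs1 minus Irs2 ran from -0.056 to 0.31 and was -0.051, -0.056 and -0.020 without DICERKO replicate 1, DICERKO replicate 2 and control replicate 2; Pik3r1 minus Pik3ca ran from -0.093 to 0.043 and was 0.043 without DICERKO replicate 3; Insr minus Igf1r ran from 0.10 to 0.73, and Foxo1 minus Irs2 from 0.73 to 0.82. Genes called over the table ran from 0 to 1257 higher and from 1 to 726 lower, and wider pathway genes from 0 to 12 higher and from 0 to 8 lower. The cause of these changes was not tested. The 9 genes had 366 to 6075 reads per library; whether more depth would change a call was not tested.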
